A study of Mus musculus with 3 samples.

Results

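The genes described here build and run the DNA replication fork, from the complexes that mark and license origins to the polymerases, clamp and chromatin factors that travel with the fork. They were chosen by symbol from a list of 50 genes, all 50 were found among the 24421 symbols measured, and they fall into 12 roles. RNA was sequenced from granulocyte progenitors, the bone marrow cells committed to producing granulocytes. They were purified from the marrow of female mice with a flow cytometer. The study asks how IRF8, a transcription factor that favours monocytes and dendritic cells over neutrophils, acts at this progenitor stage when myeloid-derived suppressor cells are produced. The library called NTB came from mice without a tumor, and the library called 4T1-TB from mice with 4T1 mammary tumor cells implanted in the orthotopic site, both on an F1 semi-syngeneic H-2b/d background. The library called IRF8-deficient came from mice lacking IRF8 on the C57BL/6 H-2b background, so strain and genotype differ together from both other libraries and their effects cannot be told apart. Each group is 1 library, and the sources used here do not give the number of mice behind it. Values written as 3 numbers stand in the order NTB, 4T1-TB, IRF8-deficient. No difference below has a replicate check or a p-value. Intervals are at 95% and cover counting error only, not the spread between mice.

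Replication is licensed when the origin recognition complex (ORC), with Cdc6 and Cdt1, loads the ring-shaped MCM2-7 helicase onto DNA as an inactive double hexamer. In S phase the kinase Cdc7, held active by its partner Dbf4, phosphorylates the loaded MCM rings, and Cdc45 and the GINS complex join them to form the moving helicase. Polymerase alpha-primase then starts each strand, polymerases delta and epsilon extend it on the PCNA clamp, and many of these genes are transcribed late in G1 under E2F control. Granulocyte progenitors divide several times before they leave the cell cycle and mature into neutrophils.

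The files give RPKM, read counts divided by gene length and library size. Reads recovered from these values summed to 43337844, 23954019 and 36969285, and single members rested on 968 to 21441 reads in the NTB library, on 395 to 9314 in the 4T1-TB library and on 296 to 9763 in the IRF8-deficient library. Irf8 itself had an RPKM of 43.8, 8.60 and 13.7, which was 3.18-fold lower in IRF8-deficient than in NTB (interval 3.00 to 3.39). The sources used here do not say which exons the mutation removes, so this level does not check the deletion. The 10 granulocyte progenitor markers summed to an RPKM of 17564, 20916 and 10443, with 6 of the 10 above NTB in 4T1-TB and 9 of the 10 below NTB in IRF8-deficient. Of these, Mpo (RPKM 6811, 6749 and 4012) and Elane (4411, 4332 and 2889) were high in all 3 libraries, while Cd34 had 36.9, 8.73 and 5.41. The 10 late neutrophil markers summed to an RPKM of 5617, 7568 and 88176.5, and all 10 were at least 2-fold higher in IRF8-deficient than in NTB, as were 5 of the 10 in 4T1-TB. The 8 monocyte and macrophage markers summed to 305, 141 and 271. The 10 erythroid markers summed to 58.4, 89.7 and 31.5, of which the highest single marker gave 56.9, 89.6 and 31.4. The 4 globin genes among them were at 0 in all 3 libraries. Whether these zeros reflect absent RNA or the way reads were counted was not tested. B cell markers summed to 17.4, 12.9 and 13.2, of which Cd79b gave 16.4, 12.3 and 10.3. The summed markers of T and NK cells, megakaryocytes and stromal or epithelial cells reached at most 0.646, 3.58 and 6.07. In bulk RNA fewer cells of a type and less RNA per cell cannot be told apart. The part of the late neutrophil and granulocyte progenitor transcripts in the results below was not tested.

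All 50 replication genes were expressed in all 3 libraries. Their RPKM ran from 7.18 to 221 in the NTB library, from 8.10 to 247 in 4T1-TB and from 3.76 to 226 where IRF8 was lacking. The median member had an RPKM of 31.2, 33.0 and 27.96, against 12.1, 12.1 and 12.5 over the 10658 genes compared, those at an RPKM of 1 or more in any library. Pcna, the sliding clamp, was the highest member in every library, and the lowest was Orc1 in NTB and IRF8-deficient and Orc4 in 4T1-TB.

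**Figure D1:**
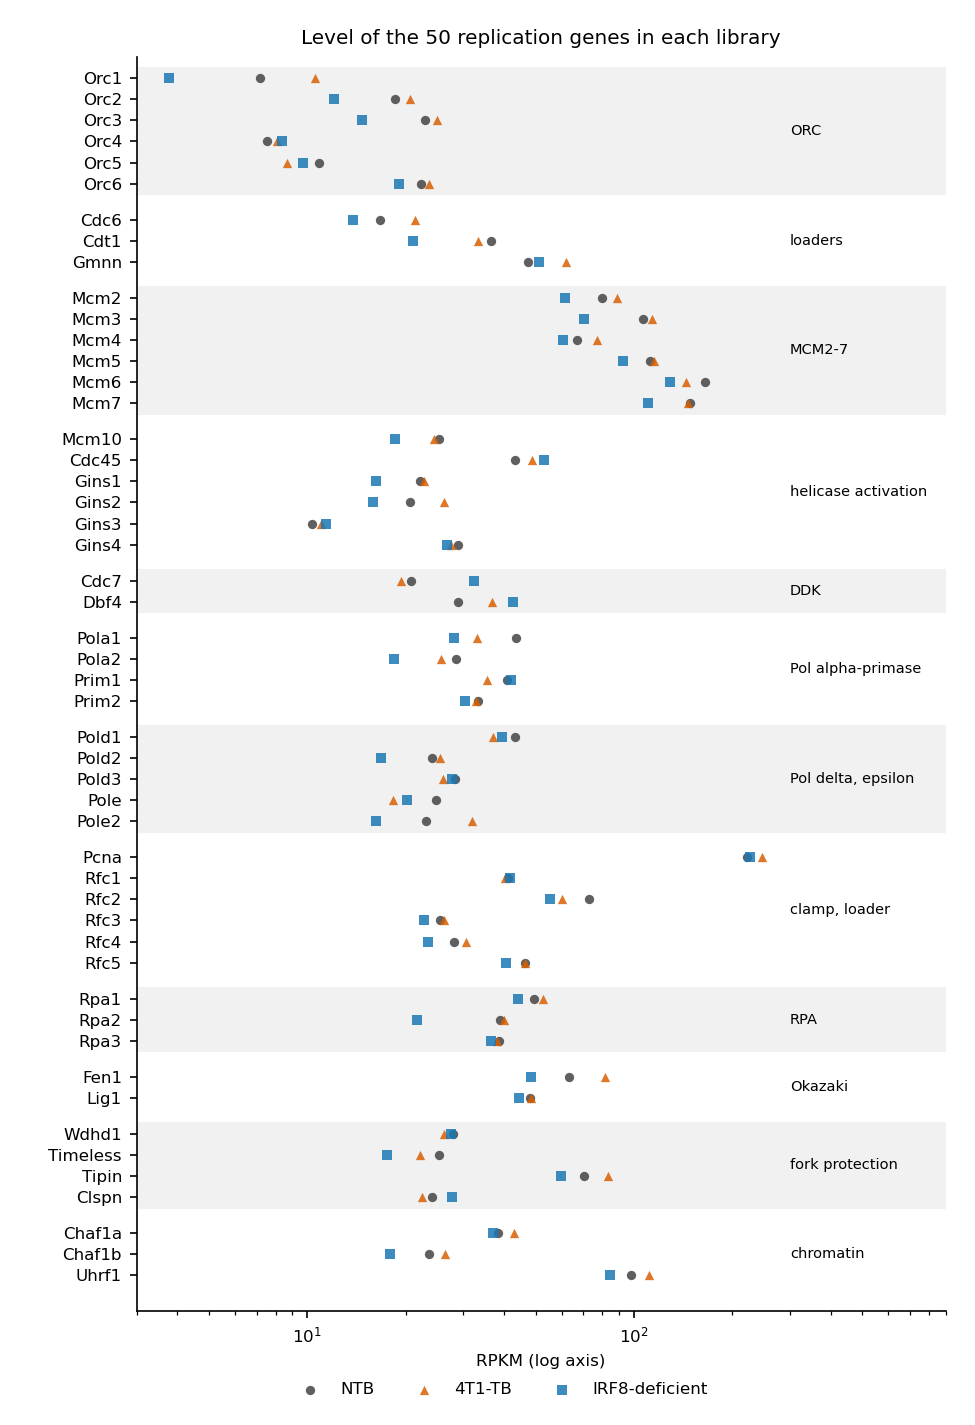
RPKM of each of the 50 genes (log axis) in NTB (circles), 4T1-TB (triangles) and IRF8-deficient (squares), 1 library each, ordered by role. Pcna stands at the right of the plot at 221, 247 and 226, and the square for Orc1 at 3.76 is the leftmost point.

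Each gene's difference is on the log2(RPKM + 1) scale, where low genes appear closer together than they are, and a call requires a size of 1 or more, which is 2-fold. In 4T1-TB against NTB no member was called higher, where 1.67% of all genes compared were, and none was called lower, where 1.35% were. Their median difference was 0.05, beside 0.01 over all genes compared, and 29 members lay above NTB (51% of all genes did) and 21 below it (49%). The counting interval of the ratio lay above 1 for 21 members (36.2% of all genes) and below 1 for 14 (32.1%). At a lower bar of 1.5-fold there was still no member either way, where 4.37% of all genes were higher and 4.97% lower. As deposited, every member of the tumor-bearing library was within 1.5-fold of the control. The member with the largest difference was Orc1, at 0.50, and the lowest was Pole, at −0.42.

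In IRF8-deficient against NTB no member was called higher (8.78% of all genes) or lower (5.73%) at 2-fold. The members lay lower as a group, with a median difference of −0.22 beside −0.02 over all genes compared. Of the members, 40 were below NTB, where 51.5% of all genes were, and 10 were above it (48.4%). The counting interval lay below 1 for 37 members (43.5% of all genes) and above 1 for 7 (40.7%), namely Gmnn, Gins3, Orc4, Clspn, Cdc45, Dbf4 and Cdc7. At 1.5-fold, 7 members were lower (16.7% of all genes), namely Rpa2, Orc1, Cdt1, Orc3, Pola1, Pola2 and Mcm3, and 1 was higher (17.4%), namely Cdc7. The 7 lower members, of 50, are a share near that background, and most other members lay a little below NTB.

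In IRF8-deficient against 4T1-TB, Orc1 was the 1 member called lower (7.07% of all genes), and none was called higher (8.83%). The median difference was −0.26 beside −0.00 over all genes, and 37 members were below 4T1-TB, where 50% of all genes were. The counting interval lay below 1 for 35 members (41.3% of all genes) and above 1 for 7 (41.1%). At 1.5-fold, 10 members were lower (18.1% of all genes), namely Orc1, Pole2, Rpa2, Fen1, Orc2, Orc3, Gins2, Mcm3, Cdt1 and Cdc6, and Cdc7 alone was higher (18.6%). The 3 comparisons share libraries pairwise, so they are not independent of one another.

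**Figure D2:**
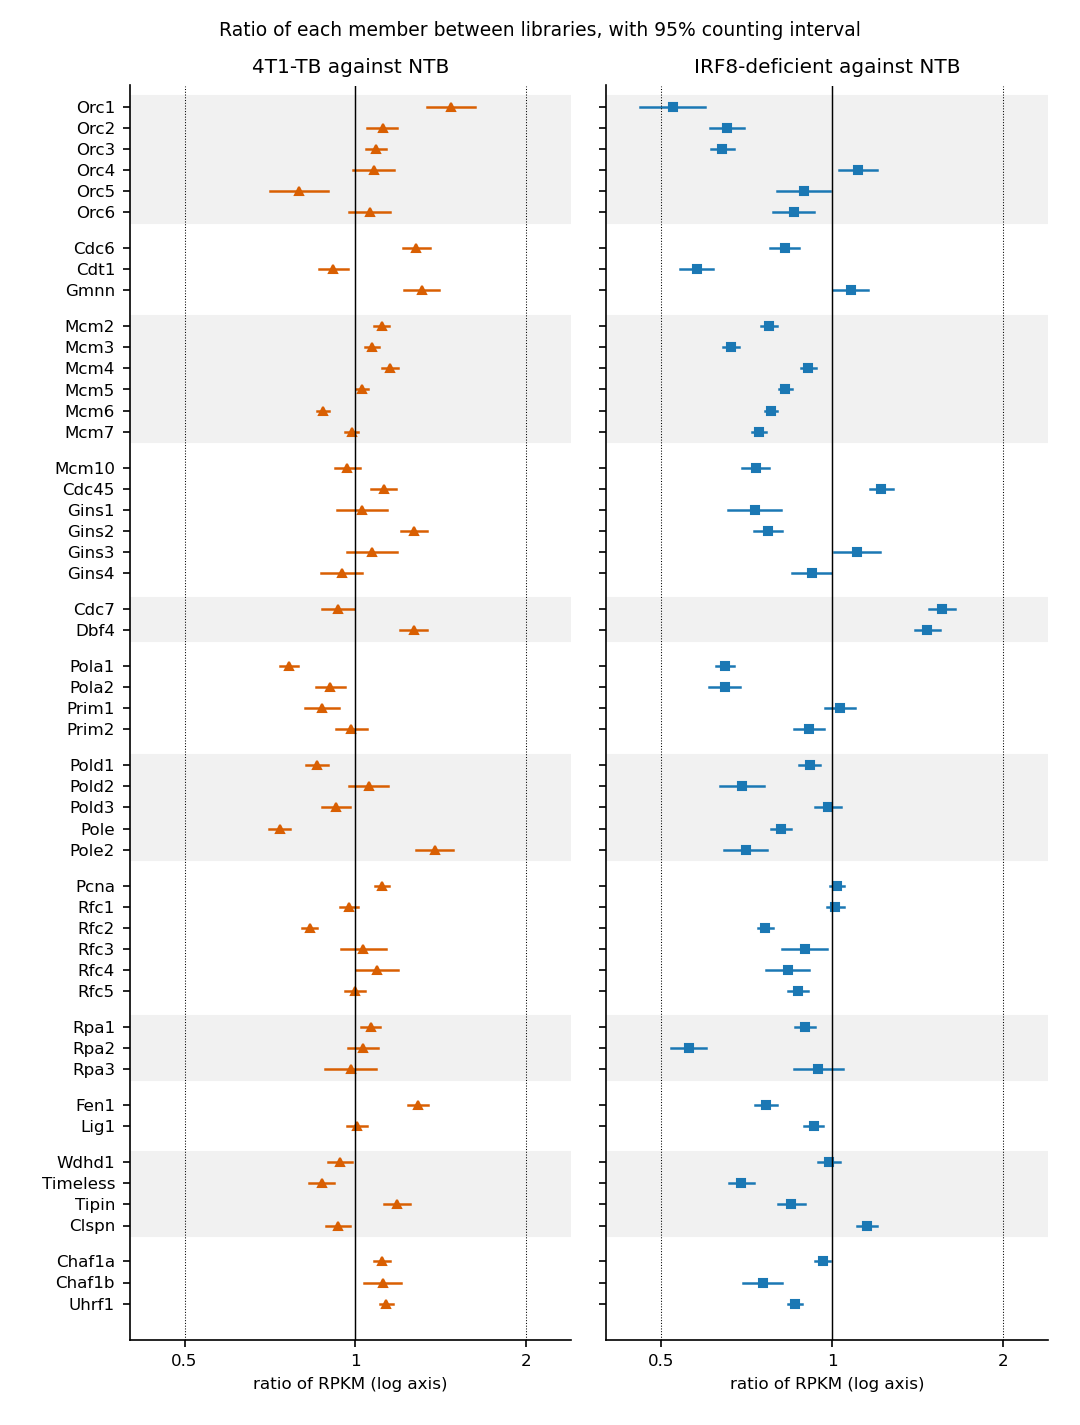
Ratio of RPKM for each member in 4T1-TB over NTB (left) and IRF8-deficient over NTB (right), on a log axis, with 95% counting intervals as bars and dotted lines at 0.5 and 2. No point passes a dotted line in either panel, and in the right panel Cdc7 and Dbf4 sit farthest to the right, at 1.56 and 1.47.

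The direction of a small shift depends on how libraries are scaled. The deposited RPKM imply library sizes of 1.034, 0.927 and 0.706 times the recovered reads, and the ribosomal RNA precursor Rn45s took 1.75%, 6.17% and 13.4% of reads. With libraries scaled by summed recovered reads the median over all genes shifted by −0.48 for IRF8-deficient against NTB, −0.14 for 4T1-TB against NTB and −0.33 for IRF8-deficient against 4T1-TB. Under it all genes split into 443 higher and 1899 lower for IRF8-deficient against NTB, in place of 936 and 611 as deposited. The same split was 480 and 1513 in place of 941 and 754 against 4T1-TB, and 147 and 185 in place of 178 and 144 for 4T1-TB against NTB. Leaving Rn45s out of the sums gave shifts of −0.32, −0.08 and −0.24 for the 3 comparisons in that order. Leaving out every gene among the 20 highest of any library (below, the 20 highest genes) gave −0.14, −0.10 and −0.04. Median ratio scaling gave 0.02, 0.01 and 0.01. The members' median for IRF8-deficient against NTB minus that of all genes was −0.20 as deposited and −0.26 by summed reads. Under all 5, 39 members stayed below NTB in IRF8-deficient, and Cdc7 and Dbf4 stayed above it. The other 9 (Orc4, Gmnn, Cdc45, Gins3, Prim1, Pcna, Rfc1, Wdhd1 and Clspn) changed sign. By summed reads IRF8-deficient values moved by −0.55 relative to NTB on the log2 scale. That is about the size of the rise of Dbf4, so Dbf4 then lay close to NTB and Cdc7 a little above it. For 4T1-TB against NTB 13 members stayed above, 20 stayed below and 17 changed sign, and for IRF8-deficient against 4T1-TB 37 stayed below, Cdc7 stayed above and 12 changed sign. In the accounts by role below, every member said to be above or below NTB or 4T1-TB kept that side under all 5 unless the sentence names an exception.

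**Figure D3:**
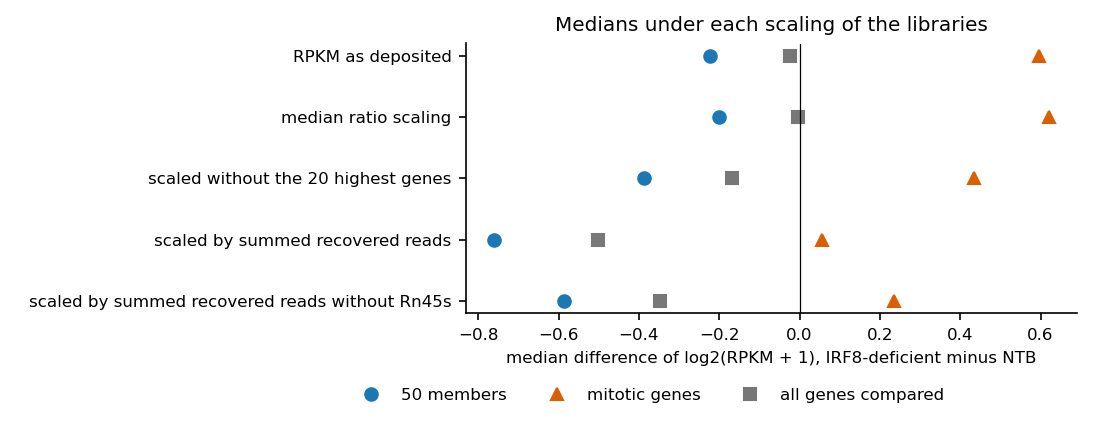
Median difference of log2(RPKM + 1) between IRF8-deficient and NTB for the 50 members (circles), the 52 mitotic genes (triangles) and all genes compared (squares) under 5 scalings of the libraries. All symbols move left together when libraries are scaled by summed recovered reads, where the members reach −0.76 and all genes −0.50, and the members stay left of all genes in every row.

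In the IRF8-deficient library the medians of the replication genes and of the mitotic genes lay on opposite sides of NTB, under all 5 scalings. A list of 52 mitotic genes, from spindle, kinetochore and cytokinesis, had summed RPKM of 2210, 2203 and 3438. In IRF8-deficient against NTB as deposited, 49 of the 52 were above NTB and the median was 0.60. Of the list, 6 were called higher (8.78% of all genes compared) and 0 lower (5.73%). The median fell to 0.43 without the 20 highest genes and to 0.23 by summed reads without Rn45s. By summed reads it was 0.05, close to NTB, so the size of the mitotic rise depended on the scaling. Spc25, a kinetochore subunit, had an RPKM of 21.7, 19.7 and 58.03, and Mki67, the proliferation marker that coats mitotic chromosomes, had 189.8, 186 and 368. The summed RPKM of the 50 members was 2339, 2427 and 2012, so the members stood at 1.06, 1.10 and 0.585 times the mitotic genes. This quantity is taken inside each library and does not depend on the scaling. It was 0.553 times as large in IRF8-deficient as in NTB (interval 0.548 to 0.558) and 1.04 times as large in 4T1-TB as in NTB (1.031 to 1.051). Other replication genes, a list of 48 that holds further fork, repair and nucleotide supply factors, had a median of −0.14 in IRF8-deficient against NTB. As deposited, 2 of these were called higher (8.78% of all genes) and 0 lower (5.73%). The 2 were the histone chaperone Asf1b (RPKM 35.3, 47.1 and 82.5) and the translesion polymerase Polh (17.7, 20.1 and 37.9). The difference of Polh, 1.06, was close to the bar of 1. Hells (RPKM 52.3, 59.6 and 27.7) had the lowest difference of the list, −0.89. Against 4T1-TB as deposited, 10 mitotic genes were called higher (8.83% of all genes) and 1 lower (7.07%) with a median of 0.57. By summed reads that median was 0.18. Of the other replication genes, 0 were called higher and 1 lower as deposited, with a median of −0.05. The 1 called lower was Hells, at a difference of −1.08. In 4T1-TB against NTB neither list had a call, and the medians were −0.04 and −0.01.

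**Figure D4:**
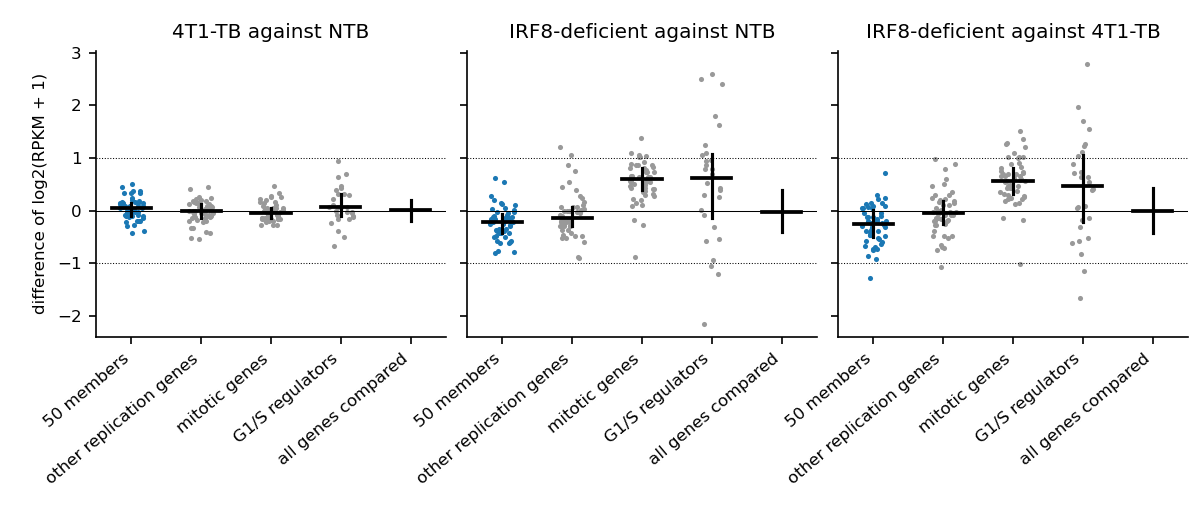
Difference of log2(RPKM + 1) for single genes (points) in 4 lists and, for all lists and all genes compared, the median (horizontal line) and the quartiles (vertical line), in 3 comparisons. Dotted lines mark 2-fold; in the middle panel the members centre at −0.22 and the mitotic genes at 0.60.

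Promoters were read for the members whose sequence was at hand, 250 bases before to 50 after the annotated start, from RefSeq promoters on GRCm38.p6, and 41 of the 50 members had an entry, with 51 promoters among them. The 50 members were chosen by symbol and not by promoter sequence. Each window printed below was picked among a gene's promoters as one that holds the string in capitals, so its presence there is not a result. The E2F core was searched on both strands as TTCCCGC, as TTGGCGC, as TTCGCGC or as TTGCCGC, and overlapping matches were joined. It was present for 28 of the 41 members (68.3%), against 20.2% of the genes compared that had a promoter and 10.9% of all genes in the table. Among the mitotic genes the share was 26.1%, and among the other replication genes 48.7% (19 of 39), so the core was frequent there too. The cell cycle genes homology region (CHR), bound by the MuvB complexes that serve late cell cycle genes, was searched on both strands as TTTGAA or as TTCGAA, and neither string lies within an E2F core string. It was present for 9 members (21.95%), against 16.5% of the genes compared, 12.8% of the other replication genes and 73.9% of the mitotic genes. CCAAT, searched on both strands, was present for 58.5% of the members and 43.4% of the genes compared. Its share was 48.7% among the other replication genes and 71.7% among the mitotic genes, above that of the members. A match is a description of letters and not evidence of binding.

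Of the members at least 1.5-fold lower in IRF8-deficient than in NTB, Rpa2, Orc1, Pola1 and Mcm3 are printed because they stand for 4 different machines at the fork (RPA, ORC, polymerase alpha and MCM), with E2F cores in capitals. Cdt1 and Orc3 also hold the core and Pola2 does not. The windows are chr4:132768110-132768409 on the plus strand for Rpa2, chr4:108579204-108579503 on the plus strand for Orc1, chrX:93632106-93632405 on the minus strand for Pola1 and chr1:20820263-20820562 on the minus strand for Mcm3, all in GRCm38.p6 and all written 5′ to 3′ in the direction of the gene. Counted from the start base as 0, the cores begin at −37 in Rpa2, at −27 in Orc1, at −169, −138, −121 and 15 in Pola1 and at 19 and 39 in Mcm3.
Rpa2: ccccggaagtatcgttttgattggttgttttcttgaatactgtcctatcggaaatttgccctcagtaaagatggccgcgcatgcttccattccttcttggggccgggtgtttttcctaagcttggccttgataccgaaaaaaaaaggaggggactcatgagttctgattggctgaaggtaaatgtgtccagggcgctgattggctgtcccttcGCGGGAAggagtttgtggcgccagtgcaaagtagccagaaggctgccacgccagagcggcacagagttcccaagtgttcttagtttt
Orc1: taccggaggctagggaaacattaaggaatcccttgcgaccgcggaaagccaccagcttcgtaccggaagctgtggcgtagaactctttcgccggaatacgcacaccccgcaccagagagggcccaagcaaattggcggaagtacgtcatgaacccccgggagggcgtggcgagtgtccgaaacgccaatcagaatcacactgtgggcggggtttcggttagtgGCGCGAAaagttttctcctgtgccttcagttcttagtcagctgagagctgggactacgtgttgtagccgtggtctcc
Pola1: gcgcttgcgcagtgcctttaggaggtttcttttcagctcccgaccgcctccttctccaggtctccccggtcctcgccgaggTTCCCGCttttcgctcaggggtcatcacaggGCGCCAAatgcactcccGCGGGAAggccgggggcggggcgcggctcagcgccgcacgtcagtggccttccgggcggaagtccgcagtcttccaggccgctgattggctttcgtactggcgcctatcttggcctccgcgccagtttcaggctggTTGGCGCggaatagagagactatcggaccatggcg
Mcm3: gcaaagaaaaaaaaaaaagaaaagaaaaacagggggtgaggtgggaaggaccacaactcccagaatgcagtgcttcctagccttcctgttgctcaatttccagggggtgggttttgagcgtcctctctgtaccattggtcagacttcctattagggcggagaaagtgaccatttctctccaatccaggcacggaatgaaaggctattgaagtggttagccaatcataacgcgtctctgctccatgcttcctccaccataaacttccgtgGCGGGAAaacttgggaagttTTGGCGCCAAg

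The CHR is in capitals in the promoters of Cdc7, Dbf4 and Cdc45, the 3 members highest in IRF8-deficient relative to NTB, and in that of Mcm7, a member below NTB there. The string was not limited to high members. Besides Mcm7 (ratio to NTB 0.743) it was found in Pold2 (0.695), Fen1 (0.765), Mcm2 (0.775) and Rfc3 (0.895), all below NTB, and in Gins3 (1.11). The windows are chr5:106964072-106964371 on the plus strand for Cdc7, chr5:8422667-8422966 on the minus strand for Dbf4, chr16:18811923-18812222 on the minus strand for Cdc45 and chr5:138171834-138172133 on the minus strand for Mcm7. The matches begin at 2 in Cdc7, at −3 in Dbf4, at −240 and 10 in Cdc45 and at −173 in Mcm7. The windows of Cdc7 and Mcm7 also hold E2F cores, left in lower case. Another RefSeq promoter of Cdc7, not printed, holds both strings too, and another of Mcm7 holds an E2F core and no CHR.
Cdc7: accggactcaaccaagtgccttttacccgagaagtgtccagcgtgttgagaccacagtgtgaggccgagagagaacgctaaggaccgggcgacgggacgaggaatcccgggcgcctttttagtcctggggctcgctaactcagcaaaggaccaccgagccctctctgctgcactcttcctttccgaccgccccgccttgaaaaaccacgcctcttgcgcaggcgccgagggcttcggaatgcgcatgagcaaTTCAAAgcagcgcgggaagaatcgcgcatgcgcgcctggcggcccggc
Dbf4: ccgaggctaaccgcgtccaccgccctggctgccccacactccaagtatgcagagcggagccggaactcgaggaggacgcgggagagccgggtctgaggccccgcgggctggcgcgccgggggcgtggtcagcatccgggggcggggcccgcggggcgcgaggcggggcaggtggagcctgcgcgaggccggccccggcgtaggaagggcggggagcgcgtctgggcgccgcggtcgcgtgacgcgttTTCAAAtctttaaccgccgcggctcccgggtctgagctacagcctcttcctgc
Cdc45: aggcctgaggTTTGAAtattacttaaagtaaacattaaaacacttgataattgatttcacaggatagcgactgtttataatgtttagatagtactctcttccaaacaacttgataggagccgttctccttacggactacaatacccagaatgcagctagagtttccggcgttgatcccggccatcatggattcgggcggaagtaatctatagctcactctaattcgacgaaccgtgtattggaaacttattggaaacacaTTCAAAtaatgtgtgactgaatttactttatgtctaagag
Mcm7: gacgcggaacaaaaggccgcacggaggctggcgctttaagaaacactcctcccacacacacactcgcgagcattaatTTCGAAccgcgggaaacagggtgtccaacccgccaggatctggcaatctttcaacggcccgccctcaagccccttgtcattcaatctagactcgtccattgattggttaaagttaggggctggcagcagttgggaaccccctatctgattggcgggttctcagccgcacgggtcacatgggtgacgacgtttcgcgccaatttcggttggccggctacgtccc

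Members with an E2F core had a median difference of −0.23 in IRF8-deficient against NTB (28 genes), and those without it −0.21 (13 genes). Members with a CHR had −0.15 (9 genes) and those without −0.23 (32 genes). The counting interval lay above 1 for 4 of the 9 with a CHR and below 1 for the other 5, and above 1 for 2 of the 32 without it and below 1 for 24. With an E2F core it lay above 1 for 4 of 28 and below 1 for 19, and without it above 1 for 2 of 13 and below 1 for 10. With CCAAT it lay above 1 for 4 of 24 and below 1 for 16, and without it above 1 for 2 of 17 and below 1 for 13. These medians and counts hold for RPKM as deposited. Of the members with a promoter and an interval above 1, Cdc7 and Dbf4 stayed above NTB under all 5 scalings. By summed reads, though, Dbf4 lay close to it. The others, Cdc45 and Gins3 with a CHR and Orc4 and Clspn without it, changed sign.

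ORC is the complex that marks origins, and all 6 of its subunits were below the median member in all 3 libraries. Orc1, the subunit whose level follows the cell cycle in many cell types, had an RPKM of 7.18 in NTB and 10.6 in 4T1-TB, with 3.76 in IRF8-deficient. It was highest in 4T1-TB and lowest in IRF8-deficient. Its ratio was 1.48 in 4T1-TB over NTB (interval 1.34 to 1.63), 0.525 in IRF8-deficient over NTB (0.459 to 0.598), and it was 2.81-fold lower in IRF8-deficient than in 4T1-TB (2.45 to 3.23). Exons of a transcript on the opposite strand overlap 10.8% of its exon length. Orc1 reached 0.0874, 0.123 and 0.0589 of the summed Orc2 to Orc6. Orc2 had 18.5, 20.6 and 12.1 and Orc3 had 23.0, 25.01 and 14.7, both lowest in IRF8-deficient, with ratios to NTB of 0.653 (0.609 to 0.6999) and 0.641 (0.612 to 0.672). Orc6, which helps recruit MCM, had 22.2, 23.6 and 19.0. Orc4 had 7.51, 8.10 and 8.35 and Orc5 had 10.9, 8.64 and 9.67, so these 2 were not lowest in IRF8-deficient as deposited, though both were by summed reads. The level of Orc3 is less certain than its ratio, because the authors' gene model is 2.04 times the nearest reference transcript.

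Among the loaders, Cdt1 delivers MCM2-7 and geminin (Gmnn) blocks Cdt1 once S phase has begun. Cdt1 had an RPKM of 36.4, 33.3 and 21.03, a ratio to NTB of 0.578 (0.541 to 0.617) in the last. Gmnn had 47.4, 62.1 and 51.2, highest in 4T1-TB at 1.31 times NTB (1.22 to 1.402). The inhibitor was above the loader in all 3 libraries. Gmnn stood at 1.30, 1.86 and 2.43 times Cdt1, and that quantity was 1.87 times as large in IRF8-deficient as in NTB (1.70 to 2.06). Cdc6, the ATPase that bridges ORC and MCM, had 16.7, 21.4 and 13.8, highest in 4T1-TB at 1.28 times NTB (1.21 to 1.35).

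The MCM2-7 helicase had the highest summed RPKM of the 12 roles in each library. In NTB the subunits ran from Mcm4 at an RPKM of 66.8 to Mcm6 at 165, and the sum of the 6 was 678, 685 and 525. All 6 were lower in IRF8-deficient than in NTB. Mcm3 had 106, 113 and 70.4, the subunit farthest below NTB, with a ratio of 0.663 (0.642 to 0.684), and Mcm4 had 66.8, 76.9 and 60.7, the nearest, at 0.909 (0.880 to 0.939). The others were Mcm2 at 79.6, 88.7 and 61.7, Mcm5 at 112, 115 and 92.7, Mcm6 at 165, 145 and 129, and Mcm7 at 149, 147 and 111. Mcm3 and Mcm6 lay on opposite sides of NTB in 4T1-TB as deposited, with ratios of 1.07 (1.04 to 1.10) and 0.876 (0.855 to 0.898), and Mcm3 was below NTB there by summed reads. As shares of the MCM sum, Mcm6 made up 24.3%, 21.1% and 24.5% and Mcm3 15.7%, 16.6% and 13.4%. Relative to the mitotic genes the MCM sum was 0.307, 0.311 and 0.153.

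Loaded MCM is switched on by Cdc7 and Dbf4, together the kinase DDK, and this was the 1 role of 12 whose members were all above NTB in IRF8-deficient. Cdc7 had an RPKM of 20.8, 19.3 and 32.4, and Dbf4 had 28.9, 36.6 and 42.6. Both were highest in IRF8-deficient as deposited, and Dbf4 was below 4T1-TB by summed reads. As deposited, the ratio to NTB in IRF8-deficient was 1.56 for Cdc7 (1.48 to 1.65) and 1.47 for Dbf4 (1.399 to 1.55). By summed reads Dbf4 lay close to NTB and Cdc7 a little above it. Dbf4 was also above NTB in 4T1-TB, at 1.27 (1.197 to 1.34). The sum of the 2 reached 0.0733, 0.0817 and 0.143 of the MCM sum. That quantity was 1.95 times as large in IRF8-deficient as in NTB (1.88 to 2.03).

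Cdc45, which binds the MCM ring when it fires, had 43.3, 48.6 and 53.0, highest in IRF8-deficient at 1.22 times NTB (1.17 to 1.28) as deposited and below NTB by summed reads. It stood at 0.0639, 0.0709 and 0.101 of the MCM sum. Mcm10, which activates the assembled helicase, had 25.3, 24.5 and 18.5, a ratio of 0.733 (0.695 to 0.774) in IRF8-deficient over NTB. Of the 4 GINS subunits, which hold Cdc45 to MCM, Gins1 had 22.2, 22.8 and 16.2 and Gins2 had 20.6, 26.1 and 15.9, both lowest in IRF8-deficient. Gins3 had 10.3, 11.0 and 11.4 and Gins4 had 29.0, 27.5 and 26.8, within 1.11-fold of NTB in IRF8-deficient as deposited. By summed reads both were further below NTB than that. Gins1 and Gins2 were thus further from NTB in that library than the other 2 subunits of the complex.

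**Figure D5:**
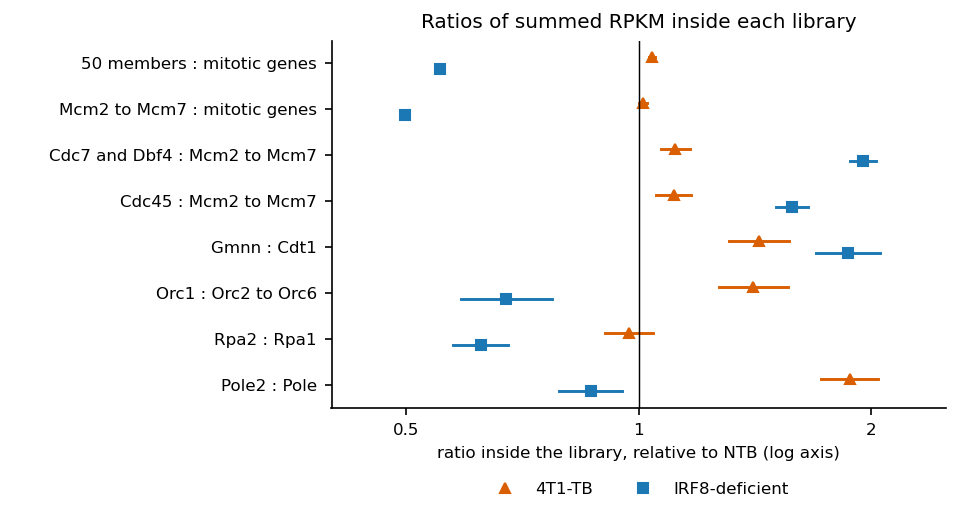
Ratios of summed RPKM inside each library, relative to the same ratio in NTB (log axis), for 4T1-TB (triangles) and IRF8-deficient (squares), with 95% counting intervals as bars. Cdc7 and Dbf4 over MCM2 to MCM7 lies at 1.95 in IRF8-deficient and the 50 members over the mitotic genes at 0.553, while Pole2 over Pole lies at 1.88 in 4T1-TB.

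Polymerase alpha-primase makes the RNA-DNA primer. Its catalytic subunit Pola1 had an RPKM of 43.4, 33.2 and 28.2, below NTB in both, with ratios of 0.764 (0.736 to 0.792) and 0.648 (0.625 to 0.673). Pola2, its regulatory subunit, had 28.4, 25.7 and 18.4. The primase subunits stayed closer to NTB, with Prim1 at 40.7, 35.6 and 42.1 and Prim2 at 33.4, 32.8 and 30.4. Prim1 was 1.18 times as high in IRF8-deficient as in 4T1-TB (1.10 to 1.27) as deposited, and below it by summed reads.

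The 2 chain-extending polymerases differed by subunit. For polymerase epsilon, which copies the leading strand, the catalytic subunit Pole had 24.9, 18.3 and 20.2 and the accessory subunit Pole2 had 23.1, 31.8 and 16.2. Pole was lowest in 4T1-TB as deposited, at 0.735 of NTB (0.704 to 0.767), though by summed reads it was lower still in IRF8-deficient. Pole2 was highest in 4T1-TB, at 1.38 times NTB (1.28 to 1.49). Pole2 stood at 0.928, 1.74 and 0.804 times Pole. For polymerase delta, which copies the lagging strand, Pold1 had 43.2, 37.0 and 39.5, Pold2 had 24.1, 25.5 and 16.8, and Pold3 had 28.2, 26.1 and 27.7. Pold2 was the delta subunit farthest below NTB in IRF8-deficient, by 1.44-fold (1.32 to 1.57).

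PCNA encircles DNA and tethers the polymerases, and the RFC complex opens it. Pcna had an RPKM of 221, 247 and 226. Its ratio to NTB in IRF8-deficient was 1.02 (0.993 to 1.05) as deposited, an interval that includes 1, and it was below NTB by summed reads. Rfc2 had 72.7, 60.4 and 55.5, highest in NTB, and was the RFC subunit farthest from NTB in both. Rfc1, the large subunit, had 41.2, 40.2 and 41.7. Rfc3 had 25.4, 26.2 and 22.7, Rfc4 had 28.1, 30.7 and 23.4, and Rfc5 had 46.5, 46.4 and 40.4. All 6 were closer to NTB in IRF8-deficient than Orc1 or Pola1.

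RPA coats single-stranded DNA as a trimer of Rpa1, Rpa2 and Rpa3. Rpa2 had an RPKM of 38.8, 40.1 and 21.7, and its difference of −0.81 from NTB in IRF8-deficient was the lowest of the 50 members on the log2(RPKM + 1) scale, while by ratio Orc1 was lower (0.525 against 0.559). Rpa1 had 49.5, 52.6 and 44.3 and Rpa3 had 38.7, 38.0 and 36.6. Rpa2 was the subunit farthest from NTB, 1.79-fold below it in IRF8-deficient (1.67 to 1.92), where it was 0.490 of Rpa1 against 0.785 in NTB and 0.763 in 4T1-TB.

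Okazaki fragments are finished by the flap nuclease Fen1 and DNA ligase 1. Fen1 had 63.1, 81.5 and 48.2, highest in 4T1-TB at 1.29 times NTB (1.24 to 1.34) and 1.69-fold lower in IRF8-deficient than in 4T1-TB (1.61 to 1.77). Lig1 had 48.0, 48.3 and 44.6. Of the fork protection factors, Timeless had 25.4, 22.2 and 17.6 and its partner Tipin had 70.5, 83.5 and 59.8, both lowest in IRF8-deficient. Claspin (Clspn), which links the fork to checkpoint kinase signalling, had 24.1, 22.5 and 27.8, highest there as deposited at 1.15 times NTB (1.10 to 1.203) and below NTB by summed reads, and Wdhd1, which ties polymerase alpha to the helicase, had 27.97, 26.3 and 27.6. Of the factors that restore chromatin, Chaf1b had 23.7, 26.4 and 17.9, Chaf1a had 38.4, 42.8 and 37.0, and Uhrf1, which guides maintenance methylation, had 98.1, 111 and 84.4. All 3 were highest in 4T1-TB as deposited, with Chaf1a below NTB by summed reads.

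Some of these levels may include reads of another gene. The sources used here do not state whether the libraries kept strand, so reads of exons that overlap on the opposite strand cannot be told apart, and such overlap covers 78.8% of the exon length of Fen1, 67.3% of Gins2, 52.5% of Chaf1a and 29.8% of Orc2. Processed pseudogenes near in sequence exist for Pcna, Mcm7, Cdc6, Rfc5, Uhrf1 and Wdhd1. By a rule of at least 10% of exon length overlapped, or at least 200 bases at 95% identity with another gene, and counting Orc3 for its long model, 17 members are uncertain, Orc1 among them, and 33 are not.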

How the data were processed

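The mouse model in the labels gave each of the 3 libraries its group. The authors deposited RPKM, for 24421 symbols per library. Per the submitters' processing notes the build was mm10 and the tools included edgeR 3.12.1, HTSeq 0.6.1, TopHat2 2.0.13, Picard 1.97, CASAVA 1.8.2 and cutadapt 1.2.1, whose roles are not stated. The sources used here do not state the annotation, strandedness or form of library size. Values were used as deposited. Whole reads were recovered for 15156 of the 15158 genes above 0 from the steps of RPKM between libraries, with gene lengths tied to GENCODE M21, and served for depth, intervals and scaling only. Ratios carry exact binomial (Clopper-Pearson) intervals, levels exact Poisson intervals, and ratios of sums large-count intervals. Genes that reached an RPKM of 1 in any library were compared on log2(RPKM + 1), and called at a difference of 1. The rule for named genes gives full values for called members and for the 5 members that differ most in each direction of a comparison, and up to 4 genes of each other list, with Irf8 and Mki67 always. The members and lists were chosen with earlier results of these data known. With 1 library per group no test was run. The read recovery and calls were tested on simulated data. The alternatives were pseudocounts of 0.1 and 5, median ratio scaling, scaling by summed reads, no filter and an RPKM of at least 5. Further alternatives were scaling without every gene among the 20 highest of any library, and calls at 1.5-fold and 4-fold. Chosen after seeing the data were scaling without Rn45s and leaving out the 17 uncertain members. The tools were scipy 1.17.1, pandas 2.3.3, numpy 2.4.6 and matplotlib 3.10.9 under Python 3.11.15.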

Additional observations from a re-analysis of the deposited data

How the results depend on the processing

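No paired analysis was possible because each group is 1 library. Members kept the direction of their median in IRF8-deficient against NTB and against 4T1-TB under every alternative run. Against NTB the median of IRF8-deficient was −0.39 when scaled without the 20 highest genes, −0.76 by summed recovered reads and −0.59 by summed reads without Rn45s. By summed reads 10 members were called lower (17.8% of all genes were) and without Rn45s 3 were (Orc1, Cdt1 and Rpa2; 12.1% of all genes), while a 1.5-fold call gave 1 higher and 7 lower. Against 4T1-TB the median was −0.64 by summed reads and −0.53 without Rn45s. There the single lower call, Orc1, became 9 by summed reads (14.2% of all genes), 4 without Rn45s (11.5%) and 10 at 1.5-fold (with 1 higher), and 0 with a pseudocount of 5, at 4-fold, or without the members that share exons or near copies, of which Orc1 is 1. For 4T1-TB against NTB the median changed sign, to −0.064 without the 20 highest genes, −0.11 by summed reads, −0.041 by summed reads without Rn45s and −0.023 without the members that share exons or near copies. Members minus mitotic genes stayed between −0.84 and −0.75 in both comparisons with the IRF8-deficient library under these alternatives, against −0.82 and −0.83 as deposited. Orc1, the lowest member in IRF8-deficient, rested on 296 reads there. Counting error alone gave its fold below 4T1-TB an interval of 2.45 to 3.23. That interval holds for RPKM as deposited and covers neither the scaling nor the spread between mice. By summed reads IRF8-deficient values moved by −0.39 relative to 4T1-TB on the log2 scale, which makes this fold larger.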

Other observations

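Genes that decide entry into S phase, a list of 32 of which 28 passed the filter, were also compared. As deposited they differed more than the replication genes in IRF8-deficient against NTB. Of the 28, 8 were called higher (8.78% of all genes) and 3 lower (5.73%), with a median of 0.61. By summed reads IRF8-deficient values moved by −0.55 relative to NTB on the log2 scale, close to the size of that median. The calls and median of this list are not given here under that scaling. The fold values below are also as deposited, and their intervals do not cover the scaling. The cyclin-dependent kinase inhibitors Cdkn2d (RPKM 10.8, 17.4 and 71.0 in NTB, 4T1-TB and IRF8-deficient) and Cdkn2c (9.65, 7.195 and 55.6) were 6.56-fold (interval 6.00 to 7.18) and 5.76-fold (5.36 to 6.19) higher in IRF8-deficient than in NTB. E2f2, an E2F transcription factor, had 5.16, 10.8 and 33.7, highest in IRF8-deficient and next in 4T1-TB. Ccnd2, a D-type cyclin that acts in G1, had 25.3, 17.7 and 4.94, lowest in IRF8-deficient by 5.13-fold against NTB (4.75 to 5.54). In 4T1-TB against NTB none of the 28 was called either way (1.67% and 1.35% of all genes).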
